A study of Mus musculus with 9 samples.

Results

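The genes described here are the Wnt ligands, their Frizzled and Lrp receptors, the proteins that hold or release beta-catenin, the Tcf/Lef factors, and a set of antagonists and feedback genes. They were chosen by gene symbol: every row of the array table annotated as a Wnt or Frizzled gene, and 17 further genes by name, of which 16 had a row. The search found 47 rows for 46 genes among 22982 transcripts, since Wnt4 had more than 1 row. It returned 19 Wnt genes, 10 Frizzled receptor genes and Fzd10os, an antisense RNA that shares the Frizzled symbol pattern. Tcf7 had no row of its own.

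Total RNA of mouse embryonic stem (ES) cells was hybridized to 9 Affymetrix Mouse Gene 1.0 ST arrays. There were 3 arrays of Dgcr8 knockout (Dgcr8 KO) ES cells, 3 of Dicer knockout (Dicer KO) ES cells and 3 of wild-type (WT) ES cells of the line v6.5. Cells of each genotype were plated in 3 dishes, and the methods call the arrays of a genotype biological replicates. No source says that they came from separate clones, so p-values measure at most the spread between these dishes. The strain of the knockout lines is not given in the sources used here. Drosha and Dgcr8 form the Microprocessor, which cuts miRNA hairpins out of primary transcripts, and Dicer trims those hairpins to mature miRNAs, so both mutants lack canonical miRNAs while only Dgcr8 KO cells lack the Microprocessor step.

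Wnt proteins are secreted, lipid-bearing ligands that bind a Frizzled receptor together with Lrp5 or Lrp6. In the absence of ligand, a destruction complex of Axin, Apc and Gsk3 marks beta-catenin for degradation; when a ligand binds, beta-catenin accumulates, enters the nucleus and joins a Tcf/Lef factor on target genes, several of which (Axin2, Notum, Nkd1, Rnf43) encode proteins that turn the pathway down again. In mouse ES cells, Wnt signals and Gsk3 inhibition are known to favour self-renewal, in large part by relieving the repression that Tcf7l1 exerts on pluripotency genes.

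The miRNAs of the miR-290 cluster are a dominant family of mouse ES cells that both mutants are unable to make. Those printed here share a seed, the stretch that pairs with a target mRNA. Both mutants lack them along with the other canonical miRNAs. The mature sequences are from RefSeq (GRCm38.p6, chromosome 7), and capitals mark the seed, bases 2 to 8, which was AAGUGCU in each. Their levels were not measured here, and no site for them was searched.
mmu-miR-291a-3p: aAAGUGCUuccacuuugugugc
mmu-miR-294-3p: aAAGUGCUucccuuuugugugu
mmu-miR-295-3p: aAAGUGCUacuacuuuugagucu

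A second set of sequences shows the promoter side of the pathway, where Tcf/Lef factors bind. The motif searched was the Tcf/Lef core, which is CTTTG followed by any of 4 endings. The spellings were CTTTGAA or CTTTGAT and, with T in the next place, CTTTGTA or CTTTGTT, on either strand, and no other motif was searched. Windows of 300 bases around a transcription start (250 before it and 50 after it) were read from RefSeq (GRCm38.p6) for 31 of the 46 genes. The other 15 genes were Apc, Axin1, Fzd2, Fzd3, Fzd6, Fzd8, Fzd10os, Lrp5, Lrp6, Notum, Sfrp1, Wnt5a, Wnt7b, Wnt8a and Wnt10a. The motif stood in 8 of 40 such windows, or 20%, and in 16.9% of all 32851 windows of that length. The 8 genes with a match were Dkk1, Fzd7, Lef1 (at another start than the one printed), Sp5, Tcf7l2, Wnt11, Wnt3 and Wnt5b. A match describes letters only, and no binding was measured.

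The 250 bases before a start are printed for Axin2, Lef1 and Tcf7l2, whose mRNA levels passed the test in both mutants (less firmly for Axin2 in Dgcr8 KO). They are also printed for the target genes Sp5 and Dkk1, whose levels did not pass the test. The last 2 were chosen after their values were seen. Fzd4, Fzd9, Gsk3b and Nkd1, also called in both mutants, are not printed, and their windows held no match. Lef1 is printed at its first start, and Tcf7l2 at its only start with a match. Each printed sequence runs 5′ to 3′ on the strand of its gene, and capitals mark a match to the motif on either strand. The windows of Axin2 (chr11:108920099-108920348, plus strand) and of the first start of Lef1 (chr3:131110047-131110296, plus strand) held no match. The RefSeq span of Axin2 begins upstream of that window, at chr11:108917828, and no window was read there. The window of the second start of Tcf7l2 (chr19:55895071-55895320, plus strand) held 1, beginning 14 bases before the start. The window of the first start of Tcf7l2 (chr19:55741560-55741859, plus strand), which is not printed, held no match.
Axin2: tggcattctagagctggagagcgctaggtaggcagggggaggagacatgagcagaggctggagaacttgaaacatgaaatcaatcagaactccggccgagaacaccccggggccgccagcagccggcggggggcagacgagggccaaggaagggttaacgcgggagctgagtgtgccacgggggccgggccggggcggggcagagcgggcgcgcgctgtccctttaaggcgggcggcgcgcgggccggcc
Lef1: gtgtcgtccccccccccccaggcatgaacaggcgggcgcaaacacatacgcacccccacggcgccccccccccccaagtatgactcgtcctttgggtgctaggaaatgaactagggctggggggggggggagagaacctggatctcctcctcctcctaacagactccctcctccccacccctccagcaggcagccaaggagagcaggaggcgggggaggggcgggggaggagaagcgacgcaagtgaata
Tcf7l2: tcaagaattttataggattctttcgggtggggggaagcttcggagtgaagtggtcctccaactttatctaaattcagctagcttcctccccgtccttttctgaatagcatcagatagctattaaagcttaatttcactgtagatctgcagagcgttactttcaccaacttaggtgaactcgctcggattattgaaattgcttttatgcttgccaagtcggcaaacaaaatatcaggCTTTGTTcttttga
The window of Sp5 (chr2:70474673-70474922, plus strand) held matches beginning 222 and 104 bases before the start, and that of Dkk1 (chr19:30549497-30549746, minus strand) held matches beginning 117 and 98 bases before it.
Sp5: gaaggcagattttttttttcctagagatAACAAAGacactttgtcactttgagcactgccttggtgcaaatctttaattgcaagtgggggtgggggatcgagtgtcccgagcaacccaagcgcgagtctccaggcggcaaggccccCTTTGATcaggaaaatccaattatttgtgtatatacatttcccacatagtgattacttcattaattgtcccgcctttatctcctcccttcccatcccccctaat
Dkk1: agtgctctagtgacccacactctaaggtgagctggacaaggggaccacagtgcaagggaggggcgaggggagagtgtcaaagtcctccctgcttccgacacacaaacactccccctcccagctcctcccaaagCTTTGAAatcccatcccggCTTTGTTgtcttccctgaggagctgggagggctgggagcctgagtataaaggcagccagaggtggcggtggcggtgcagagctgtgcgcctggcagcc

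Values are log2 levels as deposited, and a log2 ratio is a difference between genotype means. A gene was called changed at an adjusted p under 0.05 (limma, Benjamini-Hochberg over all 22982 transcripts). The median level of an array lay between 6.49 and 6.56, and arrays of 1 genotype correlated at 0.989 or more over the transcripts. Dgcr8 was lowest on the Dgcr8 KO arrays (8.74 to 8.96, against 9.98 to 9.99 in Dicer KO and 9.76 to 9.82 in WT), and Dicer1 was lowest on the Dicer KO arrays (8.32 to 8.43, against 10.39 to 10.47 in Dgcr8 KO and 10.18 to 10.24 in WT). The mean level of 8 ES cell markers was 11.86 to 11.92 in Dgcr8 KO, 11.92 to 11.95 in Dicer KO and 11.62 to 11.68 in WT, with 5 markers higher and 1 lower in each mutant. The mean of 8 fibroblast and feeder markers was 5.61 to 5.84 in Dgcr8 KO, 5.66 to 5.78 in Dicer KO and 5.70 to 5.95 in WT. Whether feeder cells added to the RNA was not tested. Of these markers, Pdgfrb, Dcn, Lum and Postn were below the dim limit, and Col1a1 (mean 7.19), Col1a2 (7.05), Col3a1 (6.59) and Thy1 (6.92) were above it. That limit, 5.86, is the 95th percentile of the mean levels of 1035 olfactory receptor clusters, taken as genes that ES cells hardly express. Below it lay 6 of the 47 rows (Rnf43, Wnt1, Wnt2, Wnt2b, Wnt3 and Wnt8b), and none of these 6 was called in any comparison. Of the olfactory receptor clusters, 2.42% to 4.83% were called, and 6 rows are too few to show a difference from such shares.

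In both mutants the secreted Wnt inhibitors Notum and Sfrp1 showed the largest rises among these genes, and Lef1 fell. The feedback scaffold Axin2 was also called lower in both, but its call in Dgcr8 KO held under only 15 of 23 other settings. Of the ligands, Wnt7b was lower in Dgcr8 KO and higher in Dicer KO than in WT, and Wnt8a was lower in both. The Frizzled receptors split by receptor and by mutant, while beta-catenin, Apc and Axin1 did not pass the test in any comparison, although Apc did so in Dgcr8 KO under 2 other normalizations, and between the mutants under 1 of them. Against WT, 16 of 47 rows were called in Dgcr8 KO (9 higher, 7 lower), or 34% against 33% of all transcripts. In Dicer KO, 14 rows were called (7 higher, 7 lower), or 29.8% against 36.9% of all transcripts. Between the mutants, 13 rows were called (Dgcr8 KO above Dicer KO for 10 and below it for 3), or 27.7% against 24.6% of all transcripts (11.2% higher, 13.4% lower). The total shares lay near those of all transcripts, and the split by direction between the mutants was not tested for the pathway genes as a class.

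Changes of at least 1.5-fold were called for 6 of the 47 rows in Dgcr8 KO (9.06% of all transcripts), 9 in Dicer KO (10.9%) and 3 between the mutants (4.95%). The median log2 ratio of the 47 rows was 0.03 in Dgcr8 KO cells and -0.06 in Dicer KO cells, against -0.01 and -0.06 for all transcripts. The arrays of the genotypes did not overlap for 20 rows in Dgcr8 KO against WT (40.9% of all transcripts), for 17 in Dicer KO against WT (48.1%) and for 13 between the mutants (42%). The comparisons with WT share the 3 WT arrays, so their values are set side by side. Both comparisons called 14 rows, as they did 24.3% of all transcripts, 22.8% in the same direction. Of the rows, 6 were called higher in both mutants (Fzd6, Gsk3b, Lrp6, Notum, Sfrp1 and Tcf7l2) and 6 lower in both (Axin2, Fzd4, Fzd9, Lef1, Nkd1 and Wnt8a). Wnt7b and Fzd2 were called in opposite directions, as were 1.47% of all transcripts. Fzd5 and Fzd10 were called in Dgcr8 KO alone, 0 rows in Dicer KO alone, and 31 in neither. Of all transcripts, 33% were called in Dgcr8 KO, 36.9% in Dicer KO and 24.3% in both. In such bulk RNA, a smaller share of cells expressing a gene and less RNA per cell cannot be told apart.

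**Figure D1:**
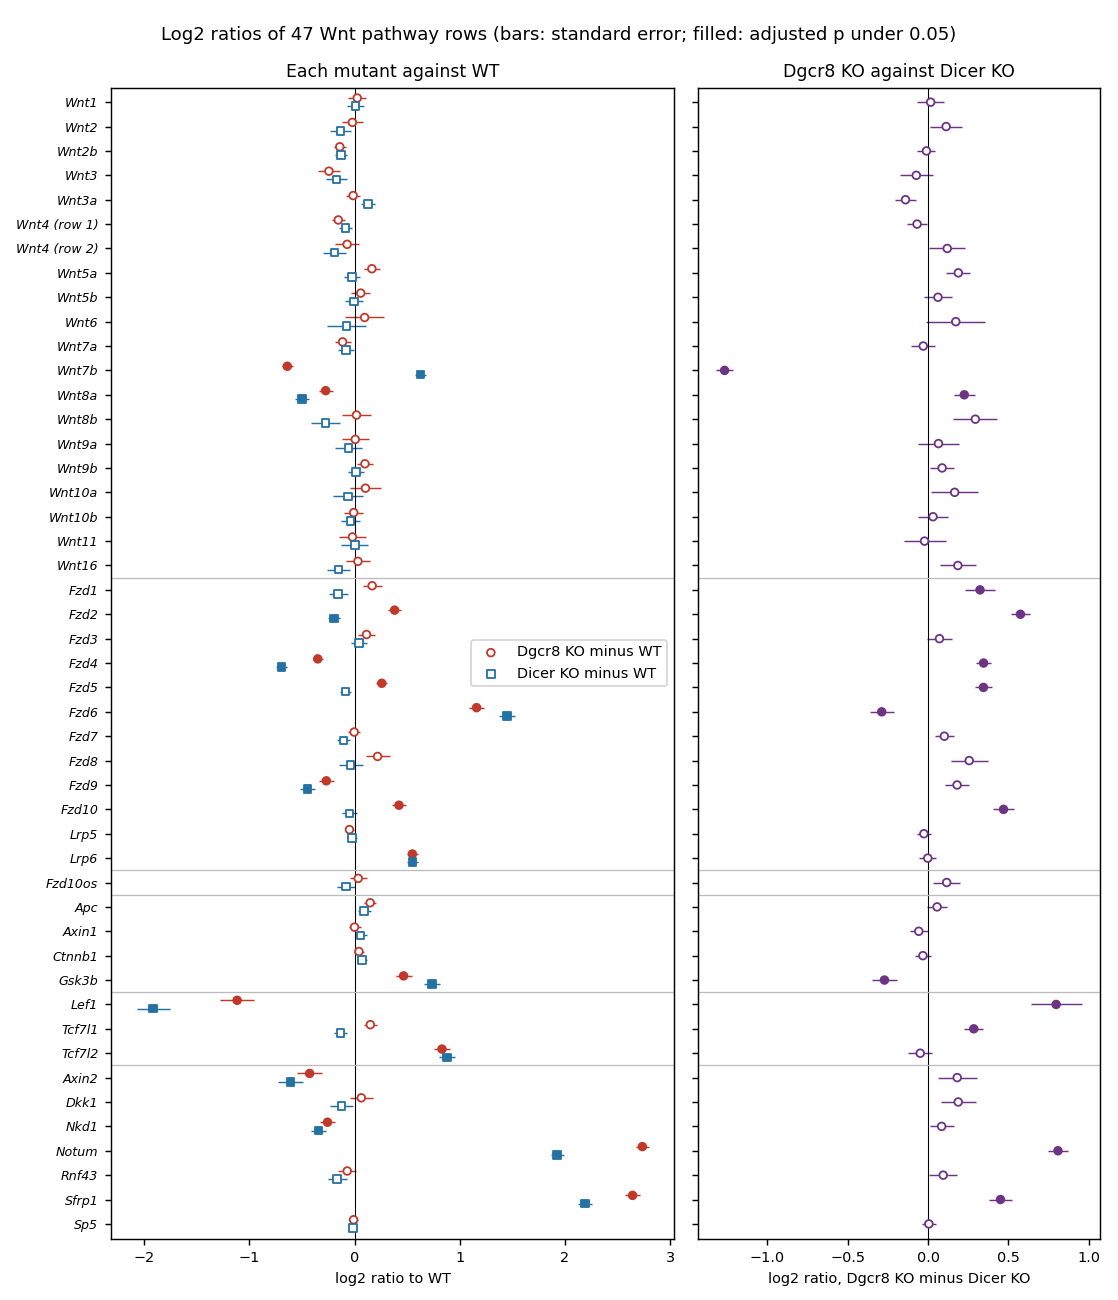
Log2 ratios of the 47 rows, ordered by role, to WT in Dgcr8 KO (red circles) and Dicer KO (blue squares) on the left, and of Dgcr8 KO over Dicer KO on the right, with the standard error as bars and filled symbols for an adjusted p under 0.05. Notum and Sfrp1 lie farthest to the right in both mutants, Lef1 farthest to the left, and Wnt7b lies on opposite sides of 0 in the mutants.

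Among the 20 ligand rows, 2 were called lower and 0 higher in Dgcr8 KO, and 1 was called each way in Dicer KO. That is 10% of the ligand rows in each mutant, against 33% of all transcripts in Dgcr8 KO cells and 36.9% in Dicer KO cells. Wnt7b, a ligand of the beta-catenin branch with known roles in placenta, lung and brain vessels (chr15:85535437-85581821), had log2 levels of 7.02, 7.07 and 7.10 in Dgcr8 KO, 8.39, 8.34 and 8.25 in Dicer KO, against 7.67, 7.77 and 7.67 in WT. The genotypes did not overlap, with WT between the mutants on all arrays. Relative to WT, Wnt7b was 1.56-fold lower in Dgcr8 KO (log2 ratio -0.64, SE 0.054, adjusted p = 1.61e-05) and 1.54-fold higher in Dicer KO (0.63, adjusted p = 1.51e-05). Between the mutants it was 2.4-fold lower in Dgcr8 KO (-1.27, 95% interval -1.39 to -1.14, adjusted p = 6.24e-07), the largest difference between them among the 47 rows.

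Wnt8a, a ligand expressed around the primitive streak of the embryo (chr18:34542327-34548061), was at 6.31 to 6.35 in Dgcr8 KO, 6.09 to 6.12 in Dicer KO and 6.49 to 6.75 in WT. It was 1.21-fold lower in Dgcr8 KO (log2 ratio -0.28, adjusted p = 0.00918) and 1.42-fold lower in Dicer KO (-0.50, adjusted p = 2.28e-04) than in WT. The difference between the mutants (0.23, adjusted p = 0.0334) lost its call without any 1 of the 6 mutant arrays (adjusted p 0.0568 to 0.0974). That call was also lost after repeated quantile normalization (adjusted p = 0.0847) or median centring of each array (0.0627). With all array rows tested, or with a trended, robust variance fit, the adjusted p was 0.0579 and 0.0537.

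The other 18 ligand rows, for 17 genes (Wnt1, Wnt2, Wnt2b, Wnt3, Wnt3a, Wnt4, Wnt5a, Wnt5b, Wnt6, Wnt7a, Wnt8b, Wnt9a, Wnt9b, Wnt10a, Wnt10b, Wnt11 and Wnt16), were not called in any comparison. Their log2 ratios lay between -0.24 and 0.16 in Dgcr8 KO against WT, between -0.28 and 0.13 in Dicer KO against WT, and between -0.14 and 0.29 between the mutants. Their lowest adjusted p values were 0.0878, 0.0999 and 0.0985. Calls appeared without 1 array: Wnt3 (-0.36) and Wnt5a (0.24) in Dgcr8 KO without Dgcr8 KO replicate 3, Wnt5b (0.17) and Wnt9b (0.18) in Dgcr8 KO without WT replicate 1, and Wnt2b in both mutants (-0.19 in Dgcr8 KO cells and -0.18 in Dicer KO cells) without WT replicate 2. Under another normalization Wnt2b and 1 row of Wnt4 were called lower in Dgcr8 KO, and Wnt3a higher in Dicer KO, than in WT. Of these 18 rows, 5 were below the dim limit, where a change in RNA could go unseen. The rows of Wnt4 gave log2 ratios to WT of -0.15 and -0.07 in Dgcr8 KO cells, and of -0.09 and -0.19 in Dicer KO cells. Wnt3a, the ligand most used to treat ES cells in culture, gave -0.01 and 0.13, and Wnt5a, a ligand of the branch that does not use beta-catenin, gave 0.16 and -0.02.

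Of the 12 receptor and co-receptor genes, 5 were called higher and 2 lower in Dgcr8 KO, and 2 higher and 3 lower in Dicer KO, than in WT. The share called was 58.3% in Dgcr8 KO, against 33% of all transcripts, and 41.7% in Dicer KO, against 36.9%. These small groups were not tested as groups. Fzd6, a Frizzled known for its part in planar polarity of skin and hair (chr15:39006149-39038192), had log2 levels of 8.63, 8.74 and 8.63 in Dgcr8 KO, 8.87, 8.98 and 9.03 in Dicer KO, against 7.66, 7.45 and 7.42 in WT. The arrays of both mutants lay above the WT arrays. Fzd6 was 2.23-fold higher in Dgcr8 KO (1.16, SE 0.075, adjusted p = 2.82e-06) and 2.73-fold higher in Dicer KO (1.45, adjusted p = 5.00e-07). The smaller level in Dgcr8 KO than in Dicer KO (-0.29, adjusted p = 0.02) lost its call without Dgcr8 KO replicate 1 or 3 or Dicer KO replicate 2 or 3 (adjusted p 0.0676 to 0.0726). That call was also lost after repeated quantile normalization (adjusted p = 0.0884).

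Fzd4, which also serves as the receptor of Norrin (chr7:89404366-89410110), was at 5.99 on each of the 3 Dgcr8 KO arrays, at 5.63, 5.59 and 5.72 in Dicer KO, and at 6.39, 6.33 and 6.31 in WT. The Dgcr8 KO values were identical as deposited (SD 0), so the SE holds no spread between the Dgcr8 KO dishes. No 2 genotypes overlapped, and the Dicer KO arrays were below the dim limit, so a ratio to them is a bound, with each such array raised to the limit. Fzd4 was 1.27-fold lower in Dgcr8 KO (-0.35, SE 0.049, adjusted p = 4.25e-04) and at least 1.4-fold lower in Dicer KO (adjusted p = 4.01e-06) than in WT. Dgcr8 KO exceeded Dicer KO at least 1.09-fold (adjusted p = 8.76e-04).

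Lrp6, the co-receptor that is phosphorylated once a ligand binds (chr6:134446476-134566913), had log2 levels of 9.91, 9.97 and 9.96 in Dgcr8 KO, 9.88, 9.98 and 9.99 in Dicer KO, against 9.33, 9.41 and 9.45 in WT. The mutants overlapped each other and lay above WT on every array. It was 1.46-fold higher in Dgcr8 KO (0.55, SE 0.052, adjusted p = 3.43e-05) and 1.47-fold higher in Dicer KO (0.55, adjusted p = 2.80e-05), and the 95% interval of the difference between the mutants ran from -0.12 to 0.12. Its relative Lrp5 was not called, with log2 ratios of -0.05 and -0.02 to WT.

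Of the other Frizzled genes, Fzd1, Fzd2, Fzd5 and Fzd10 were called between the mutants. Fzd2 was at 7.81 to 7.92 in Dgcr8 KO, 7.23 to 7.36 in Dicer KO and 7.39 to 7.51 in WT. The genotypes did not overlap, with WT between the mutants. Fzd2 was 1.3-fold higher in Dgcr8 KO (0.38, adjusted p = 7.58e-04) and 1.49-fold higher there than in Dicer KO (0.57, adjusted p = 1.15e-04). The lower level in Dicer KO than in WT (-0.19, adjusted p = 0.0276) lost its call without WT replicate 1 or 3 or Dicer KO replicate 2 or 3 (adjusted p 0.0686 to 0.0956).

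Fzd10 was at 7.15 to 7.24 in Dgcr8 KO, 6.64 to 6.80 in Dicer KO and 6.64 to 6.85 in WT. It was higher in Dgcr8 KO than in WT (0.42, adjusted p = 9.76e-04) and than in Dicer KO (0.47, adjusted p = 9.36e-04), and the other genotypes overlapped. Fzd10os, its antisense neighbour, had log2 ratios of 0.03 in Dgcr8 KO cells and -0.08 in Dicer KO cells and was not called. Fzd5 was at 8.94 to 9.04 in Dgcr8 KO, 8.57 to 8.70 in Dicer KO and 8.70 to 8.77 in WT, and was higher in Dgcr8 KO than in WT (0.26, adjusted p = 0.00369) and than in Dicer KO (0.34, adjusted p = 0.00120). It was called lower in Dicer KO than in WT only after repeated quantile normalization (-0.19, adjusted p = 0.00811). Fzd10 and Fzd5 thus stood above both other genotypes in Dgcr8 KO cells.

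Fzd9 was at 6.86 to 6.87 in Dgcr8 KO, 6.57 to 6.87 in Dicer KO and 7.12 to 7.16 in WT. It was lower in Dicer KO than in WT (-0.45, adjusted p = 9.38e-04), and Dgcr8 KO was also below WT (-0.27, adjusted p = 0.0183), a call lost without Dgcr8 KO replicate 1 (adjusted p = 0.0547). Without Dicer KO replicate 3, the highest of its group at 6.87, Fzd9 was also higher in Dgcr8 KO than in Dicer KO (0.27, adjusted p = 0.00710, against 0.18 and 0.108 with all arrays). Fzd1 was called between the mutants only (0.32, adjusted p = 0.0290), although its arrays overlapped there. It lost that call without Dgcr8 KO replicate 2 or 3 or Dicer KO replicate 2 or 3 (adjusted p 0.0635 to 0.107). The call was also lost with all array rows tested, with median centring of each array, and with the arrays of the 2 genotypes alone (adjusted p 0.0505 to 0.0610). Fzd3, Fzd7 and Fzd8 were not called, with log2 ratios between -0.11 and 0.22 to WT. Fzd7 was called higher in Dgcr8 KO than in Dicer KO after repeated quantile or cyclic loess normalization (adjusted p = 0.0282 and 0.0458). Under SAM, the test that the paper's methods name, Fzd8 was called higher in Dgcr8 KO than in Dicer KO (adjusted p = 0.0273). Of the 10 Frizzled genes, 5 were called higher and 1 lower in Dgcr8 KO against Dicer KO, beside 11.2% and 13.4% of all transcripts.

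**Figure D2:**
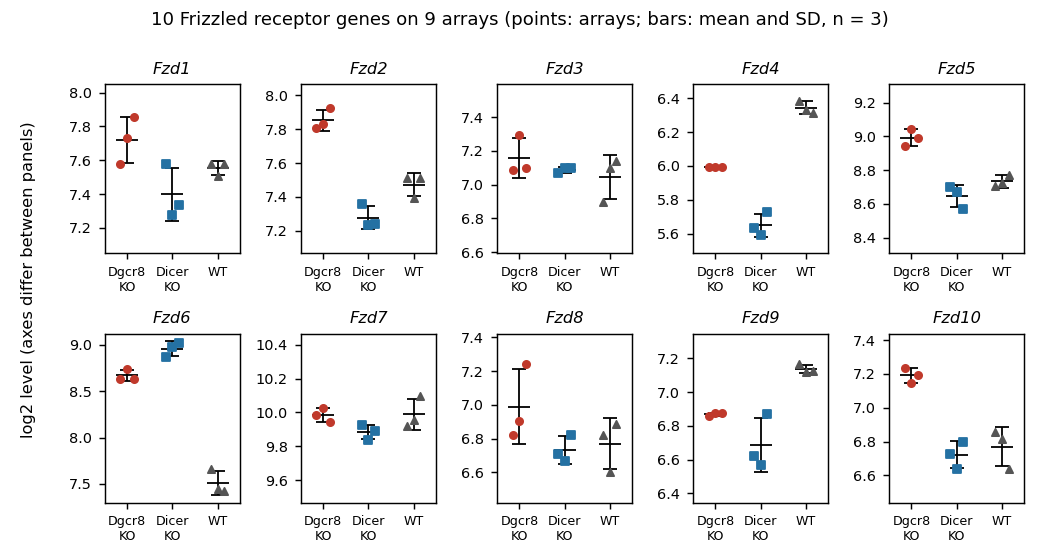
Log2 levels of the 10 Frizzled receptor genes on the 3 arrays each of Dgcr8 KO, Dicer KO and WT, with a separate axis for each gene. Points are arrays and bars give the mean and SD; Fzd6 is above WT in both mutants, Fzd4 below WT in both, and Fzd2, Fzd5 and Fzd10 are highest in Dgcr8 KO.

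Of Ctnnb1, Apc, Axin1 and Gsk3b, which encode beta-catenin and parts of its destruction complex, only Gsk3b was called, or 25% in each mutant, against 33% of all transcripts in Dgcr8 KO cells and 36.9% in Dicer KO cells. Ctnnb1, which encodes beta-catenin (chr9:120933400-120960507), had log2 levels of 11.48, 11.45 and 11.37 in Dgcr8 KO, 11.46, 11.49 and 11.44 in Dicer KO, against 11.35, 11.38 and 11.44 in WT. The genotypes overlapped, and the 95% intervals of the log2 ratio to WT were -0.07 to 0.15 in Dgcr8 KO (adjusted p = 0.600) and -0.04 to 0.18 in Dicer KO (adjusted p = 0.278). The amount and place of the protein, which the pathway regulates, were not measured.

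Gsk3b, the kinase that phosphorylates beta-catenin (chr16:38089001-38246084), rose in both mutants. Its log2 levels were 9.21, 9.30 and 9.26 in Dgcr8 KO, 9.51, 9.63 and 9.44 in Dicer KO, against 8.64, 8.90 and 8.83 in WT. WT lay lowest, without overlap, and WT replicate 1 was the lowest array. Gsk3b was 1.38-fold higher in Dgcr8 KO (0.47, SE 0.077, adjusted p = 0.00111) and 1.67-fold higher in Dicer KO (0.74, adjusted p = 5.03e-05). The difference between the mutants (-0.27, adjusted p = 0.0297) lost its call without Dgcr8 KO replicate 1 or 3 or Dicer KO replicate 1 or 2 (adjusted p 0.0725 to 0.110). That call was also lost with all array rows tested (adjusted p = 0.05485).

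Apc, a scaffold of the complex (chr18:34220297-34322190), had log2 levels of 9.54, 9.58 and 9.46 in Dgcr8 KO, 9.43, 9.52 and 9.46 in Dicer KO, against 9.28, 9.46 and 9.40 in WT. Its arrays did not overlap between Dgcr8 KO and WT by a narrow margin (0.15, 95% interval 0.01 to 0.28, adjusted p = 0.0928; 0.00602 to 0.358 under other settings, with a call after repeated quantile normalization or cyclic loess), and overlapped between Dicer KO and WT (0.09, -0.04 to 0.23). Axin1, the constitutive scaffold (chr17:26131217-26195811), had 8.47, 8.49 and 8.41 in Dgcr8 KO, 8.62, 8.46 and 8.47 in Dicer KO, against 8.41, 8.50 and 8.47 in WT. Its genotypes overlapped, with 95% intervals of -0.13 to 0.13 in Dgcr8 KO and -0.07 to 0.19 in Dicer KO against WT.

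The Tcf/Lef factors, which carry beta-catenin to DNA, moved in different directions. Lef1, most often an activating partner of beta-catenin (chr3:131110297-131224357), had log2 levels of 7.05 on each of the 3 Dgcr8 KO arrays, 6.23, 6.64 and 5.89 in Dicer KO, against 8.01, 8.30 and 8.20 in WT. No 2 genotypes overlapped, and the Dicer KO arrays were spread more widely than the rest. The Dgcr8 KO values were identical as deposited (SD 0), so the SE holds no spread between the Dgcr8 KO dishes. Lef1 was 2.17-fold lower in Dgcr8 KO (-1.12, SE 0.16, adjusted p = 4.56e-04) and 3.77-fold lower in Dicer KO (-1.91, adjusted p = 1.15e-05) than in WT. Dgcr8 KO exceeded Dicer KO 1.74-fold (0.80, adjusted p = 0.00562).

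Tcf7l2, a factor with activating and repressing isoforms that 1 row cannot separate (chr19:55741797-55933659), had 8.71, 8.68 and 8.74 in Dgcr8 KO, 8.80, 8.79 and 8.68 in Dicer KO, against 7.71, 7.94 and 7.99 in WT. The mutants overlapped each other and lay above WT. It was 1.78-fold higher in Dgcr8 KO (0.83, SE 0.075, adjusted p = 2.33e-05) and 1.84-fold higher in Dicer KO (0.88, adjusted p = 1.30e-05). Tcf7l1, the main repressing Tcf of ES cells, was not called against WT (0.15, adjusted p = 0.0894 in Dgcr8 KO, and -0.13, adjusted p = 0.111 in Dicer KO), and was higher in Dgcr8 KO than in Dicer KO (0.28, adjusted p = 0.00731). After repeated quantile normalization it was called higher in Dgcr8 KO (adjusted p = 0.0292) and lower in Dicer KO (0.0150) than in WT, and without Dgcr8 KO replicate 3 it was called higher in Dgcr8 KO (0.0255).

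Among the 7 antagonists and feedback genes, 2 were called higher and 2 lower in each mutant, or 57.1%, against 33% of all transcripts in Dgcr8 KO cells and 36.9% in Dicer KO cells. Notum, a secreted enzyme that removes the lipid from Wnt ligands and so inactivates them (chr11:120653788-120661193), had log2 levels of 9.995, 10.13 and 10.11 in Dgcr8 KO, 9.27 on each of the 3 Dicer KO arrays, and 7.25, 7.34 and 7.45 in WT. The genotypes were far apart, with Dgcr8 KO highest and WT lowest. Notum was 6.66-fold higher in Dgcr8 KO (2.73, SE 0.061, adjusted p = 7.92e-09) and 3.8-fold higher in Dicer KO (1.93, adjusted p = 2.97e-08) than in WT. Dgcr8 KO exceeded Dicer KO 1.75-fold (0.81, adjusted p = 1.83e-05).

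Sfrp1, a secreted Frizzled-related protein that binds Wnt ligands outside the cell (chr8:23411383-23449632), had 10.16, 10.12 and 10.16 in Dgcr8 KO, 9.69, 9.71 and 9.69 in Dicer KO, against 7.35, 7.53 and 7.64 in WT. It followed the order seen for Notum on all 9 arrays. Sfrp1 was 6.24-fold higher in Dgcr8 KO (2.64, SE 0.069, adjusted p = 1.45e-08) and 4.57-fold higher in Dicer KO (2.19, adjusted p = 2.85e-08), and Dgcr8 KO exceeded Dicer KO 1.37-fold (0.45, adjusted p = 0.00128).

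Axin2, the Axin that beta-catenin induces and that is widely read as a measure of pathway activity (chr11:108917828-108950783), had 6.66, 6.23 and 6.55 in Dgcr8 KO, 6.30, 6.24 and 6.36 in Dicer KO, against 7.04, 6.99 and 6.69 in WT. All mutant arrays lay below the WT arrays, but WT replicate 3 exceeded Dgcr8 KO replicate 1 by little. Axin2 was 1.52-fold lower in Dicer KO (-0.61, SE 0.12, adjusted p = 0.00306) and 1.34-fold lower in Dgcr8 KO (-0.43, adjusted p = 0.0215) than in WT. That call in Dgcr8 KO did not hold without WT replicate 1 or 2 or Dgcr8 KO replicate 2 (adjusted p 0.0565 to 0.0767), nor with estimated array weights or with the arrays of the 2 genotypes alone (adjusted p = 0.0572 and 0.0574).

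Nkd1, a feedback inhibitor that binds Dishevelled, behaved in the same way, at 6.22 to 6.42 in Dgcr8 KO, 6.18 to 6.31 in Dicer KO and 6.48 to 6.70 in WT. It was lower in Dicer KO (-0.34, adjusted p = 0.00528) and in Dgcr8 KO (-0.26, adjusted p = 0.0244) than in WT, and the second call was lost without WT replicate 1 or 2 or Dgcr8 KO replicate 2 (adjusted p 0.0697 to 0.0804). That call was also lost with estimated array weights or with the arrays of the 2 genotypes alone (adjusted p = 0.0606 and 0.0537). Dkk1, a secreted blocker of Lrp5 and Lrp6, had log2 ratios of 0.06 in Dgcr8 KO cells and -0.12 in Dicer KO cells, and Sp5, a zinc-finger factor induced by beta-catenin, had -0.01 in both. The deposited value of Sp5 was 6.3301 on arrays of all 3 genotypes, and Fzd1 and Wnt5a also repeated a value across the genotypes. Whether such rows followed their mRNA was not tested. Rnf43, a ligase that removes Frizzled from the cell surface, was dim, with -0.07 and -0.16. Among these antagonists and feedback genes, those that beta-catenin is known to induce thus split. Notum was higher in both mutants, Axin2 and Nkd1 were lower, less firmly in Dgcr8 KO, and Sp5, Dkk1 and Rnf43 were not called.

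**Figure D3:**
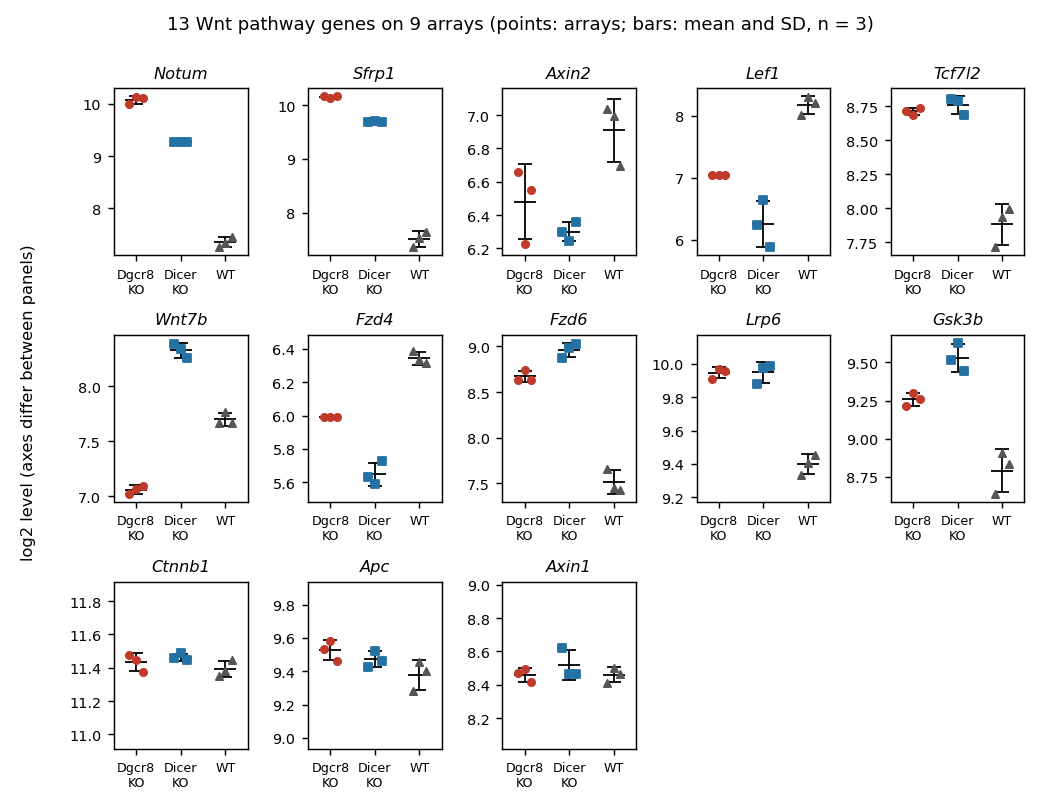
Log2 levels of 13 genes on the 3 arrays each of Dgcr8 KO, Dicer KO and WT, with a separate axis for each gene. Points are arrays and bars give the mean and SD; Notum and Sfrp1 are highest in Dgcr8 KO and lowest in WT, Lef1 is lowest in Dicer KO, Wnt7b is below WT in Dgcr8 KO and above it in Dicer KO, and Ctnnb1, Apc and Axin1 span narrow ranges.

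Other genes of the pathway were counted from lists, beside the 15.7% of all transcripts called higher and 17.3% called lower in Dgcr8 KO, and the 17.8% and 19.1% in Dicer KO. Of 7 secretion and agonist genes, 1 was higher and 0 lower in Dgcr8 KO, and 1 higher and 2 lower in Dicer KO. Porcn, the enzyme that attaches the lipid to Wnt ligands, was higher by log2 ratios of 1.52 in Dgcr8 KO (adjusted p = 8.98e-08) and 1.53 in Dicer KO (adjusted p = 5.30e-08). Porcn and Notum, which add and remove that lipid, were thus both higher in both mutants. Rspo1, a secreted amplifier of Wnt signals, had -0.13 in Dgcr8 KO (adjusted p = 0.456) and was lower in Dicer KO (-0.39, adjusted p = 0.0215), and Rspo2, of the same family, was called lower in Dicer KO (adjusted p = 0.0427), with both genotypes below the dim limit.

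Of 12 further secreted antagonists, 1 was higher and 1 lower in Dgcr8 KO, and 2 higher and 3 lower in Dicer KO. Apcdd1, a membrane-bound inhibitor, rose in both mutants (1.04 in Dgcr8 KO cells and 0.89 in Dicer KO cells). Sfrp2 fell by 0.34 in Dgcr8 KO cells and by 1.10 in Dicer KO cells on the log2 scale, against the direction of Sfrp1. Sfrp4 had 0.05 in Dgcr8 KO and was at least 1.72-fold lower in Dicer KO (adjusted p = 1.31e-04), where its mean of 5.85 was below the dim limit. Dkkl1, a Dickkopf-like gene, had -0.03 in Dgcr8 KO and was higher in Dicer KO (0.83). The differences between the mutants in Sfrp2 (0.77), Dkkl1 (-0.86) and Sfrp4 (Dgcr8 KO at least 1.79-fold above Dicer KO) were called.

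Of 10 co-receptor and receptor-turnover genes, 2 rose and 1 fell in Dgcr8 KO, and 3 rose and 1 fell in Dicer KO. Ptk7, a receptor-like protein of planar polarity, rose in both mutants (0.35 in Dgcr8 KO cells and 0.26 in Dicer KO cells), as did Znrf3, the partner of Rnf43 (0.41 and 0.27). The Wnt5a receptors Ror1 and Ror2 differed: Ror1 was lower in Dicer KO (-0.66) and had -0.22 in Dgcr8 KO (adjusted p = 0.0928), and Ror2 was lower in Dgcr8 KO (-0.28) and had -0.11 in Dicer KO (adjusted p = 0.206). Of 22 rows of the cytoplasmic relay, 3 rose and 4 fell in Dgcr8 KO, and 4 rose and 6 fell in Dicer KO. Tnks, a polymerase that marks Axin for degradation, rose by 0.54 in Dgcr8 KO cells and 0.23 in Dicer KO cells, and Btrc, the ligase subunit that recognizes phosphorylated beta-catenin, by 0.42 and 0.44. Dact2, a Dishevelled-binding protein, also rose (0.30 in Dgcr8 KO cells and 0.65 in Dicer KO cells), and Csnk1d, a casein kinase 1 gene, fell by 0.39 in Dgcr8 KO cells and 0.21 in Dicer KO cells.

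Of 15 nuclear cofactors, 1 was higher and 6 lower in Dgcr8 KO, and 2 higher and 6 lower in Dicer KO. The co-repressor Ctbp2 fell by 0.61 in Dgcr8 KO cells and 0.71 in Dicer KO cells, the Groucho co-repressor Tle4 by 0.53 and 0.32, and Cby1, which binds beta-catenin, by 0.44 and 0.31. Tle5, a short Groucho relative, had -0.06 in Dgcr8 KO and was higher in Dicer KO (0.30). Of 9 target genes outside the symbol rule, 2 rose and 2 fell in Dgcr8 KO, and 0 rose and 3 fell in Dicer KO. Myc, a target in other cell types, fell by 2.62 in Dgcr8 KO (adjusted p = 3.07e-08) and fell by 2.36 in Dicer KO (adjusted p = 3.33e-08) on the log2 scale. Ccnd1 was higher in Dgcr8 KO (0.18, adjusted p = 0.0110) and had -0.12 in Dicer KO (adjusted p = 0.0617). Tnfrsf19 was higher in Dgcr8 KO (0.37) and had -0.17 in Dicer KO (adjusted p = 0.147), and Bambi had 0.14 in Dgcr8 KO (adjusted p = 0.142) and was lower in Dicer KO (-0.39).

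Of 5 genes that Tcf7l1 is known to repress in ES cells, 4 were higher in Dgcr8 KO cells and 5 in Dicer KO cells, and 0 were lower in either. Their median log2 ratio was 0.72 in Dgcr8 KO cells and 1.10 in Dicer KO cells. Klf2 rose by 1.51 in Dgcr8 KO cells and 1.48 in Dicer KO cells, Tfcp2l1 by 0.72 and 1.45, Nanog by 0.77 and 1.10, and Esrrb by 0.55 and 0.16. These transcription factors of the naive state belong in part to the ES cell markers, whose mean level was also higher in both mutants, and Tcf7l1 itself was not called against WT. The part of either in these changes was not tested.

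**Figure D4:**
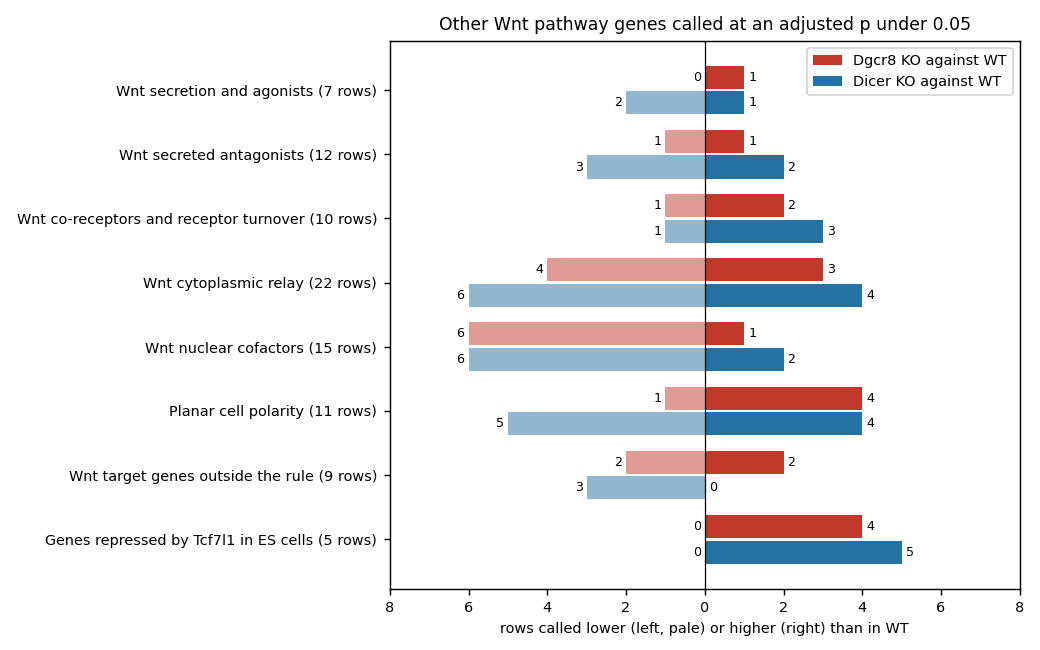
Number of rows called higher (right, full colour) or lower (left, pale) than WT in Dgcr8 KO (red) and Dicer KO (blue) at an adjusted p under 0.05, for 8 lists of other Wnt pathway genes. The 5 genes repressed by Tcf7l1 were called higher (4 in Dgcr8 KO, 5 in Dicer KO) and none lower, and the nuclear cofactors were called lower more often (6 of 15 in each mutant) than higher (1 in Dgcr8 KO, 2 in Dicer KO).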

How the data were processed

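RNA of Dgcr8 KO, Dicer KO and WT mouse ES cells was measured on 9 1-colour Affymetrix arrays, 3 per genotype, grouped by the sample labels. The authors deposited log2 values: RMA in the paper's methods, GCRMA in the submitters' processing notes, neither with a version, and they were used with no further normalization and no pseudocount. Detection calls were not used here, and the olfactory receptor limit stands in for them. The precision is limited by the 3 arrays per genotype.

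The platform annotation gave the gene symbols, and RefSeq of GRCm38.p6, in which all 47 rows were matched, gave positions and sequences. Rows without a symbol (12147) and rows of miRNA genes alone (326), mitochondrial (5) and Y-linked genes (97) were left out, which leaves 22982 transcripts. Of the rows with a symbol, 1613 carry several, none of them with a gene of the rule. The genes and lists were chosen with earlier results of these data known.

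R 4.3.3 and limma 3.58.1 (lmFit and eBayes) fitted a mean per genotype to all 9 arrays (6 residual degrees of freedom), with 3 contrasts and Benjamini-Hochberg adjustment over all transcripts. Values on all 9 arrays are given for genes called with a change of at least 1.5-fold in any contrast and for Ctnnb1, Apc, Gsk3b, Axin1 and Lrp6. In each other list the up to 4 called genes with the smallest adjusted p against WT are named. The scripts were tested on simulated data. Alternatives were 13 other settings (among them SAM, which the methods name, written anew), leaving out each array in turn, and 1 setting added after the data were seen.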

Additional observations from a re-analysis of the deposited data

Results flagged for a closer look

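Wnt7b and Fzd2 were called in opposite directions in the mutants relative to WT, and the difference between the mutants was itself called. For Wnt7b, the ratio was -0.64 in Dgcr8 KO cells and 0.63 in Dicer KO cells relative to WT, and the log2 ratio of Dgcr8 KO to Dicer KO was -1.27 (limma, adjusted p = 6.24e-07). That difference kept its sign and its call under all 23 other settings. For Fzd2, the ratio was 0.38 in Dgcr8 KO cells and -0.19 in Dicer KO cells relative to WT, and the ratio of Dgcr8 KO to Dicer KO was 0.57 (adjusted p = 1.15e-04), a call lost under a required change of 1.5-fold and under no other setting run. The Dicer KO value against WT was not called without WT replicate 1 or 3 or Dicer KO replicate 2 or 3 (adjusted p 0.0686 to 0.0956).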

How the results depend on the processing

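The log2 ratios of the 47 rows changed sign, with a call, in 0 cases under the 23 settings run. Requiring a change of at least 1.5-fold lowered the counts the most, to 6 rows in Dgcr8 KO against WT, 9 in Dicer KO against WT and 3 in Dgcr8 KO against Dicer KO, from 16, 14 and 13 rows. Leaving out 1 array gave 14 to 19, 13 to 15 and 9 to 13 rows. SAM called 12, 13 and 15 rows, without Fzd5, Fzd9, Nkd1 and Wnt8a in Dgcr8 KO (adjusted p 0.0706 to 0.113) and without Fzd2 in Dicer KO (0.119). Other settings, the 2 stricter thresholds left aside, kept 11 of 16, 13 of 14 and 9 of 13 calls throughout, and 9, 4 and 9 further rows gained a call under 1 or more. Another scaling moved the median of all transcripts by at most 0.06. With the replicate number as a block, 16, 14 and 13 rows were called. The deviations of same-numbered arrays from their genotype means correlated at -0.20 to 0.34. The labels give only a number, and whether such arrays were handled together was not tested. Without both WT replicate 1 and Dgcr8 KO replicate 2, a setting chosen after the data were seen, gave 15, 13 and 14 rows. The cause of these shifts was not tested. The array table gives no signal over background, and 6 rows were at a level where changes could be missed.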

Other observations

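Planar cell polarity genes, which use Frizzled receptors without beta-catenin, changed in both directions. Of 11 such genes, 4 rose and 1 fell in Dgcr8 KO, and 4 rose and 5 fell in Dicer KO, relative to WT. Their median log2 ratios were 0.14 in Dgcr8 KO cells and 0.05 in Dicer KO cells. For scale, calls in either direction took in 33% of all transcripts for the Dgcr8 mutant and 36.9% for the Dicer mutant. This small list was not tested as a group. Vangl1, a membrane protein at the centre of the polarity system, rose by 0.86 in Dgcr8 KO cells and 0.81 in Dicer KO cells. Prickle2, its cytoplasmic partner, was at least 2.12-fold higher in Dgcr8 KO (adjusted p = 7.69e-05) and at least 2.7-fold higher in Dicer KO (adjusted p = 1.23e-05), since its WT mean of 5.85 was below the dim limit. Daam1, a formin that links Dishevelled to actin, rose by 0.62 and 0.70. Celsr2, an atypical cadherin of the same system, had 0.02 in Dgcr8 KO (adjusted p = 0.794), was lower in Dicer KO (-0.58, adjusted p = 7.90e-06), and differed between the mutants (0.60, adjusted p = 1.89e-05).

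Of 6 primitive streak and mesoderm genes, tissues in which Wnt signals act in the embryo, 1 was called higher and 0 lower in Dgcr8 KO, and 0 higher and 2 lower in Dicer KO. Their mean level was 6.27 to 6.44 in Dgcr8 KO, 6.28 to 6.32 in Dicer KO and 6.31 to 6.45 in WT. Of 5 neural ectoderm genes, 1 was higher and 2 lower in each mutant, and their mean level was 6.91 to 7.01 in Dgcr8 KO, 6.48 to 6.54 in Dicer KO and 6.85 to 7.02 in WT. The genes called here and in the next list are named after their values were seen. The lists of this paragraph stand beside the same shares of all transcripts, 33% for the Dgcr8 mutant and 36.9% for the Dicer mutant. These lists were not tested as groups either. Neurod1 had -0.31 in Dgcr8 KO (adjusted p = 0.195) and was at least 3.31-fold lower in Dicer KO (adjusted p = 1.50e-05), where its mean was below the dim limit. Pax6 was higher in both mutants (0.93 in Dgcr8 KO cells and 0.43 in Dicer KO cells) and Nes lower in both (-0.36 and -0.35), and Zic1 was called lower in Dgcr8 KO with both genotypes below the dim limit. The 8 rows of primitive endoderm genes averaged 5.70 to 5.89 in Dgcr8 KO, 5.64 to 5.69 in Dicer KO and 5.87 to 6.01 in WT. Of these rows, 1 was higher and 1 lower in Dgcr8 KO, and 0 higher and 2 lower in Dicer KO. Gata4 was higher in Dgcr8 KO (0.36, adjusted p = 0.00535), had -0.17 in Dicer KO (adjusted p = 0.119), and was higher in Dgcr8 KO than in Dicer KO (0.52, adjusted p = 9.83e-04). Dab2 was at least 1.74-fold lower in each mutant by 1 of its rows (adjusted p = 1.95e-06 in Dgcr8 KO cells and 1.27e-06 in Dicer KO cells), and Sox7 was lower in Dicer KO (-0.31, adjusted p = 0.0242). Sox17 and the other row of Dab2 were below the dim limit on average.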
